A study of Homo sapiens with 9 samples.

Results

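The mRNAs of the Sm, LSm and small nuclear ribonucleoprotein (snRNP) core proteins were examined in RNA that co-purified with CCR4-NOT and in input RNA from HEK293T cells, a human embryonic kidney line. Members were the protein-coding genes of the deposited table whose symbols start with SNRP and a letter from A to N or a digit, or with LSM and a digit. The rule gave 24 of 30956 genes, and all 24 were among the 16674 genes that passed the filter for testing. They comprised 7 Sm ring proteins, 4 proteins specific to the U1 or U2 snRNP, 8 LSm ring proteins, 2 proteins specific to the U7 snRNP and 3 larger proteins with an LSm domain. No protein-coding gene of the deposited table carried the symbol SNRPN, which the rule would also match. No U5-specific protein carries such a symbol, so these were counted in a separate list.

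RNA immunoprecipitation sequencing (RIP-seq) was used to ask which RNAs associate with CCR4-NOT, the main complex that shortens mRNA tails in the cytoplasm. The RIP group held 3 libraries of RNA recovered through a V5 tag on CNOT7, a deadenylase subunit that carried the substitution D40A, which impairs catalysis. The input group held 6 samples of input RNA, 3 of them labelled with doxycycline treatment (3 µg/mL, 24 h) and 3 labelled as untreated with it. The table gave 3 input columns whose names do not tell which of these 6 samples they hold. All samples were labelled as cytoplasmic RNA of HEK293T, and ribosomal RNA was depleted before sequencing. Whether the RIP cells received doxycycline, and whether replicates were separate cultures, is not stated by the labels, so p-values measure only the spread between these libraries. A V5 immunoprecipitate of untagged cells was not analysed here, so recovery that does not depend on the tag was not measured.

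Sm and LSm proteins share a small beta-barrel fold and assemble into rings on RNA. The Sm ring forms on the U1, U2, U4 and U5 small nuclear RNAs and is loaded in the cytoplasm with help from the SMN complex, after which the particles are imported into the nucleus and serve the spliceosome. LSm proteins form related rings: one containing LSM8 binds the end of U6 RNA in the nucleus, and one containing LSM1 in its place binds shortened mRNA tails in the cytoplasm and promotes removal of the cap. That decapping step follows deadenylation, the reaction that CCR4-NOT carries out.

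The RIP libraries held 37140622 to 40764899 reads in genes and the input columns 37290120 to 38918356. RIP replicate 2 stood apart at low counts, with 14786 genes without a read against 6398 and 6720 in the other RIP libraries. All 24 members kept their call, or the lack of one, when that library was left out. Mitochondrially encoded RNA made up 0.931% to 1.12% of the normalized counts in RIP and 18.6%, 22.7% and 26.6% in input columns 1, 2 and 3. Of 6 genes chosen as marks of the embryonic kidney line, all 6 averaged at least 10 normalized counts in RIP and in input, with sums of 14743 to 16438 in RIP and 33227 to 37238 in input. VIM made up most of these sums, with 9425 to 10934 in RIP and 27557 to 31429 in input. PAX2 (1134 to 1355 in RIP, 556 to 668 in input) and LHX1 (409 to 437 in RIP, 58.1 to 264 in input) stood higher in RIP. Of 8 genes chosen for other lineages, COL1A1 alone averaged at least 10 normalized counts in either group, and 4 had no unique entry in the deposited table. ALB was at 0 in every input column and at 10.8, 0 and 0.784 in RIP replicates 1, 2 and 3.

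Most of these mRNAs were recovered below input. A total of 16 members fell and 3 rose in RIP at an adjusted p under 0.05 (limma), and 5 did not pass. Of all 16674 tested genes, 21.3% fell and 22.5% rose by the same rule (43.8% in either direction), and 25.3% and 26% of the protein-coding genes did. The median log2 fold of the members was -0.77, against -0.05 for all tested genes. A normalized count is the number of reads in a gene divided by a size factor of the library, not per length, so levels of different genes are not compared. The log2 fold is the mean log2(normalized count + 1) of RIP minus that of input. All 3 RIP libraries lay below all 3 input columns for 15 members, where 27.5% of all tested genes did so, and above them for 3 members, where 27.3% did so (54.8% did one or the other). The folds ran from -2.03 for SNRPD2 to 0.65 for LSM14B on the log2 scale. At least a 2-fold change was shown by 10 of the members that fell (10.7% of all tested genes) and by 0 of those that rose (11.4%). By edgeR on recovered reads 16 members also fell and 3 rose, where 20.6% and 22.2% of tested genes did. In the authors' deposited table, 18 fell and 3 rose, where 19.9% and 20.6% of the genes with an adjusted p did.

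**Figure D1:**
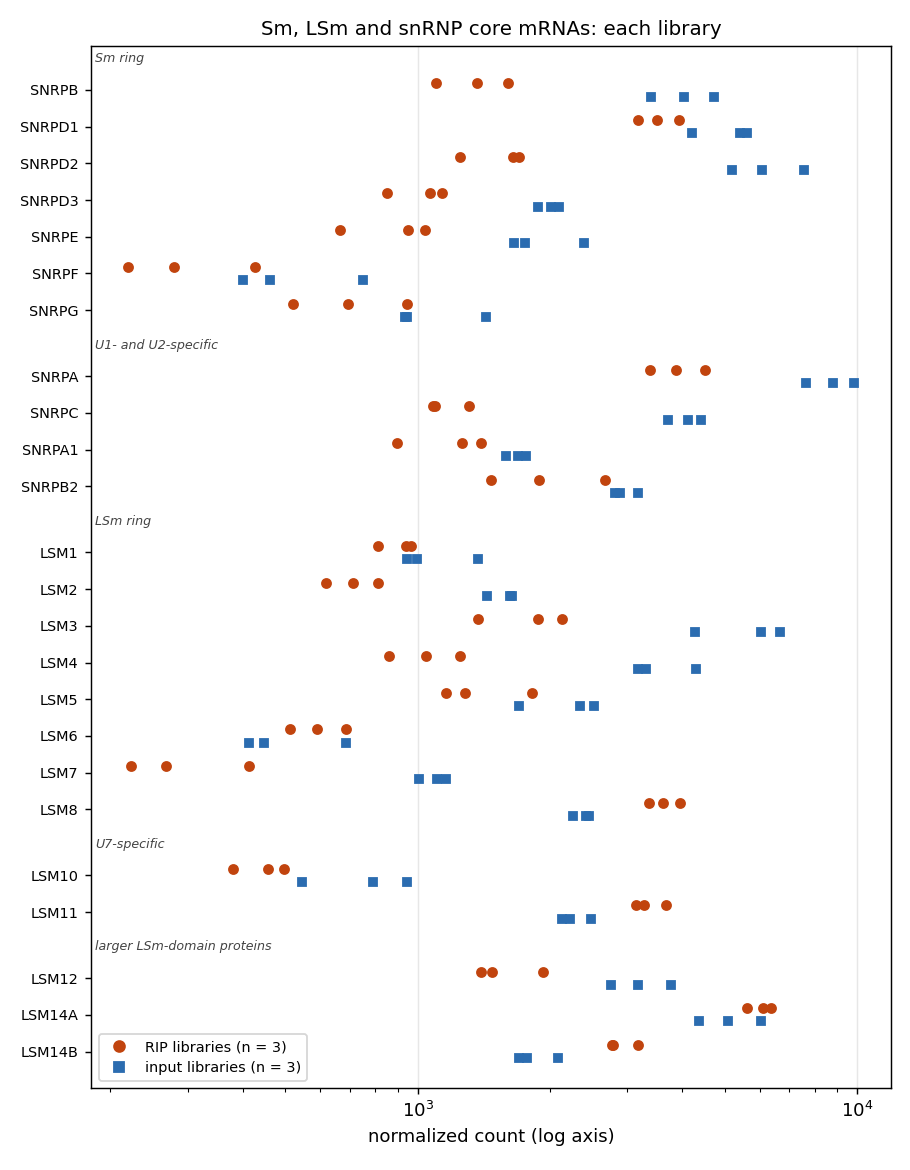
Normalized count of each member mRNA in the 3 RIP libraries (circles) and 3 input columns (squares), on a log axis, grouped by role. The RIP points lie left of all input points for 15 members and right of them for LSM8, LSM11 and LSM14B.

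The first bases of these mRNAs are shown because a C followed by a run of pyrimidines at the very start is a known regulatory element, best described in mRNAs of the translation machinery. RefSeq (GRCh38.p14) start windows were matched for 20 of the 24 members by symbol. SNRPD1, LSM1, LSM6 and LSM14A had no entry. A start with a C and at least 4 further pyrimidines was found in 5 of the 20 members, and in 7.1% of 11851 tested genes with a window. The share was 10.8% among tested genes that fell, 5.54% among those that rose and 6.13% among the rest. The 5 members pointed both ways: SNRPD2, SNRPA and LSM2 fell, while LSM8 and LSM11 rose. Each line holds 15 bases before the start and 15 from it, with the tract in capitals. They are followed by the other members with the largest falls, LSM7 and SNRPC, and the member with the largest rise, LSM14B, whose annotated starts hold no such tract.
SNRPD2, the most downstream of 3 starts, chr19:45691939-45691968, minus strand: aagaggaagtcccgcCTCTCTCTCCTCagg
SNRPA, chr19:40751188-40751217, plus strand: aatctctcgagagttCTCTCCgcacgcggg
LSM2, chr6:31806952-31806981, minus strand: tttcccggcttcctcCTCCCCTCTactcta
LSM8, chr7:118184149-118184178, plus strand: gggttctggcgcgccCTTTCagttctgctt
LSM11, chr5:157743697-157743726, plus strand: tctggcggcttcgttCCTTCTTCCCatcgg
LSM7, chr19:2328572-2328601, minus strand: ggcggtgcctgcgaagagccacacggcgcg
SNRPC, chr6:34757490-34757519, plus strand: gcgcgtcatttccgggcgtcacgtaacgga
LSM14B, chr20:62122460-62122489, plus strand: tcctctcagagccccagtcgcgcgcccctt
SNRPD2 had 2 further annotated starts without a tract. An annotated start need not be the one used in these cells, and which start the reads came from was not tested.

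The Sm ring mRNAs lay below input as a group. Of 7 members, 5 fell and 2 did not pass, where 21.3% of all tested genes fell and 22.5% rose. The median log2 fold of the 7 was -0.98. None rose by limma, by edgeR or in the authors' deposited table. At an unadjusted p under 0.05 (limma), none rose and all 7 were lower. The share of all tested genes at that unadjusted threshold was not counted, so this count of 7 has no background to be read against. SNRPD2, which pairs with SNRPD1 in the ring, had 1248, 1650 and 1704 normalized counts in RIP replicates 1, 2 and 3, against 5196, 6067 and 7547 in input columns 1, 2 and 3. The highest RIP library was below the lowest input column by a wide margin. SNRPD2 lies on chromosome 19 at 45687454 to 45692316 (GRCh38.p14). Its fall was the largest of all members, with a log2 fold of -2.03 (SE 0.17, adjusted p = 3.5e-06).

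SNRPB encodes SmB and its splice variant, and its protein pairs with SNRPD3. It had 1103, 1365 and 1607 normalized counts in RIP, against 3389, 4024 and 4732 in input. Every RIP library was below every input column, and its log2 fold was -1.58 (SE 0.17, adjusted p = 2.1e-05). SNRPD3 had 1139, 850.2 and 1065 in RIP, against 1875, 2011 and 2093 in input. The groups did not overlap there either, with a log2 fold of -0.98 (SE 0.16, adjusted p = 0.00034). SNRPD1, the partner of SNRPD2, stood closer to input, at 3169.8, 3507 and 3921 in RIP against 4217, 5406 and 5618 in input. Its log2 fold was -0.52 (SE 0.14, adjusted p = 0.011), and it was not called without input column 2 (-0.47, adjusted p = 0.062). The partners therefore had unequal folds in both pairs, although the difference within a pair was not tested.

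SNRPE, SNRPF and SNRPG form the remaining trio of the ring. SNRPE had 667, 1040.2 and 950.1 normalized counts in RIP, against 1659, 1754 and 2395 in input. RIP lay below input throughout, with a log2 fold of -1.13 (SE 0.21, adjusted p = 0.00078). SNRPF had 279, 219 and 427 in RIP, against 461, 399.7 and 751 in input. SNRPG had 522, 694 and 945 in RIP, against 937, 946 and 1430.1 in input. RIP replicate 3 overlapped the input range in both. Their log2 folds of -0.80 (95% interval -1.51 to -0.09) and -0.63 (-1.17 to -0.09) did not pass, with adjusted p of 0.065 and 0.057 (limma). Both passed without RIP replicate 3, at -1.06 and -0.85, and both were lower in the authors' deposited table, at -0.80 and -0.62. A pseudogene, SNRPGP2, had 15.5% of the normalized count of SNRPG in RIP and 12.7% in input, so reads of this gene can be split between copies. The other 12 pseudogenes named after members had at most 2.29% of their parent's count in RIP and at most 1.74% in input.

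**Figure D2:**
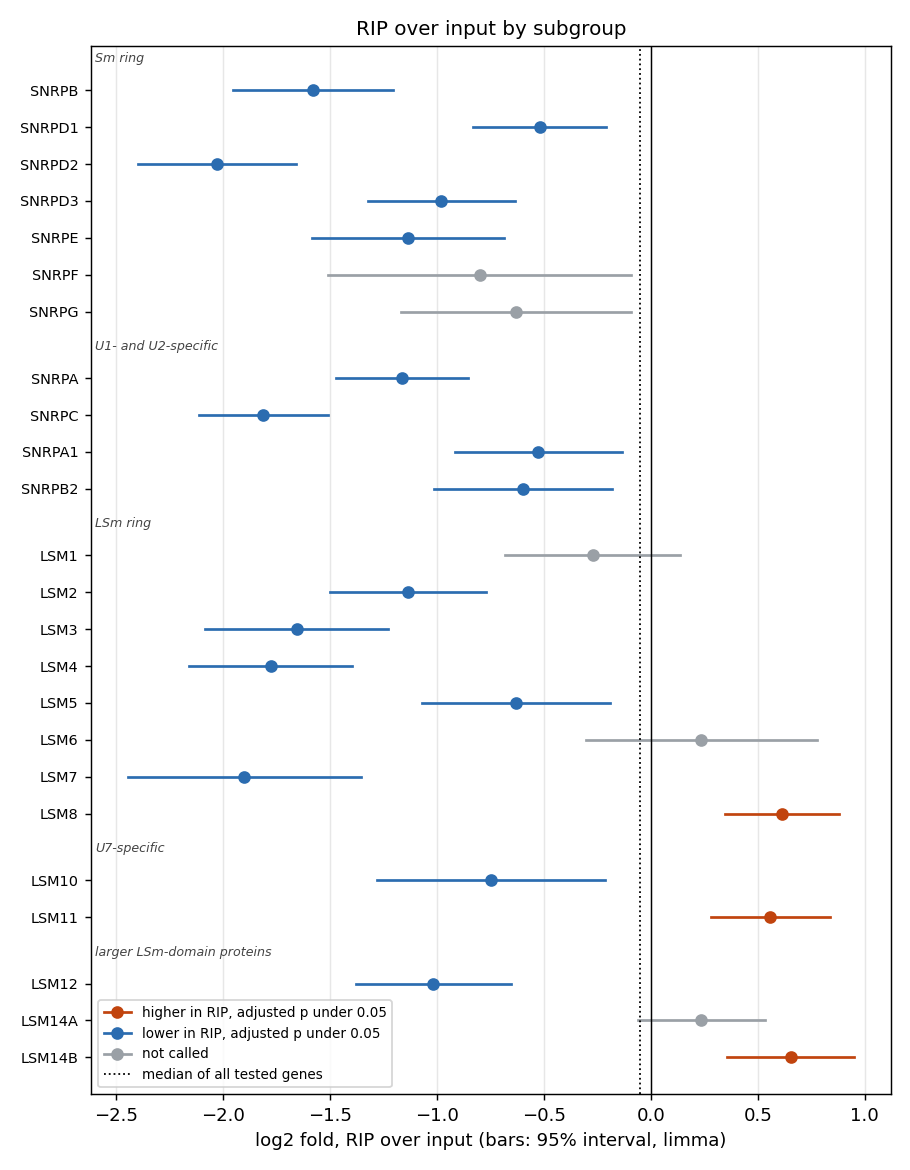
Log2 fold of RIP over input for each member, with 95% intervals from limma (n = 3 RIP and 3 input libraries). Blue marks the 16 members that fell, orange the 3 that rose and grey the 5 that did not pass, and the dotted line stands at the median of all tested genes, -0.05.

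All 4 members specific to U1 or U2 had lower mRNA levels in RIP, with no overlap between the groups. Proteins of U1 and U2 with other symbols were counted in the separate list. Of all tested genes, 21.3% fell, and 27.5% had every RIP library below every input column. SNRPC (U1-C, which helps the U1 particle engage the start of an intron) had 1096, 1086 and 1311 normalized counts in RIP, against 3713, 4417 and 4116 in input. The 3 RIP libraries lay close together and far below input, with a log2 fold of -1.81 (SE 0.14, adjusted p = 2.1e-06). SNRPA (U1-A, which binds a loop of U1 RNA) had 3875, 3372 and 4494 in RIP, against 7625, 8807 and 9835 in input. It fell by 1.16 on the log2 scale (SE 0.14, adjusted p = 4.4e-05).

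The U2 pair moved less. SNRPB2 (U2-B'') had 1471, 2668 and 1891 normalized counts in RIP, against 2816, 2891 and 3164 in input. SNRPA1 (U2-A', its binding partner) had 898, 1391 and 1264 in RIP, against 1585, 1759.7 and 1694 in input. RIP replicate 1 was the lowest library for both genes, and RIP replicate 2 the highest. Their log2 folds were -0.60 (SE 0.19, adjusted p = 0.023) and -0.53 (SE 0.18, adjusted p = 0.032). Both calls lay near the threshold, and neither held in every fit with a single library left out. SNRPB2 was not called without RIP replicate 1 (-0.39), input column 2 (-0.61) or input column 3 (-0.55). SNRPA1 was not called without RIP replicate 1 (-0.34) or without input column 1 (-0.57), 2 (-0.49) or 3 (-0.52).

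The LSm ring split. Of 8 mRNAs, 5 fell (LSM2, LSM3, LSM4, LSM5 and LSM7), LSM8 rose, and LSM1 and LSM6 did not pass. Of all tested genes, 21.3% fell and 22.5% rose. The median log2 fold of the 8 mRNAs was -0.88. LSM2 to LSM7 are the subunits that both rings share, while LSM1 and LSM8 define the cytoplasmic and the nuclear ring.

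LSM7 had 268, 223 and 413 normalized counts in RIP, against 1008, 1104 and 1163 in input. LSM4, whose protein carries a long flexible tail beyond the ring, had 860.4, 1042 and 1247 in RIP, against 3310.0, 3176 and 4289 in input. LSM3 had 1369, 2129.6 and 1881 in RIP, against 4262, 6041 and 6660.0 in input. In these 3 genes every RIP library lay below every input column, and in LSM3 the input columns were the most spread out. Their log2 folds were -1.90 (SE 0.25), -1.78 (SE 0.17) and -1.66 (SE 0.20), with adjusted p of 7.9e-05, 9.7e-06 and 3.8e-05 (limma). LSM2 had 620.2, 713 and 812 in RIP, against 1439, 1618 and 1641 in input, again without overlap, and fell by 1.14 on the log2 scale (SE 0.17, adjusted p = 0.00018).

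LSM5 had 1281, 1822 and 1159 normalized counts in RIP, against 1696, 2346 and 2519.6 in input. RIP replicate 2 stood above input column 1, so the groups overlapped. Its log2 fold was -0.63 (SE 0.20, adjusted p = 0.024), and it was not called without RIP replicate 3 (-0.50), input column 2 (-0.57) or input column 3 (-0.52). LSM6 had 513, 686 and 590.3 in RIP, against 413, 446 and 687 in input. The groups overlapped widely, and its log2 fold of 0.24 (95% interval -0.30 to 0.78) did not pass (limma, adjusted p = 0.47).

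LSM8, the subunit of the nuclear ring on U6 RNA (chromosome 7, 118184164 to 118204035, GRCh38.p14), was the LSm ring mRNA that rose. It had 3960 normalized counts in RIP replicate 1, 3609 in replicate 2 and 3365 in replicate 3, against 2421, 2455 and 2254 in input. All RIP libraries stood above all input columns, with a log2 fold of 0.61 (SE 0.12, adjusted p = 0.0015). LSM1, its counterpart in the cytoplasmic ring, had 811, 966 and 939.9 in RIP, against 997, 948 and 1374 in input. RIP replicate 2 lay above input column 2, and the log2 fold of -0.27 (95% interval -0.68 to 0.14) did not pass (limma, adjusted p = 0.27).

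The U7 snRNP trims the ends of replication-dependent histone pre-mRNAs, and LSM10 and LSM11 replace SNRPD1 and SNRPD2 in its ring. LSM11 had 3265, 3679 and 3132 normalized counts in RIP, against 2224, 2480.3 and 2134 in input. All RIP libraries stood above all input columns, with a log2 fold of 0.56 (SE 0.13, adjusted p = 0.0037). LSM10 went the other way, with 380.1, 458 and 496 in RIP against 547, 947 and 789 in input. Its groups did not overlap, and its log2 fold was -0.75 (SE 0.24, adjusted p = 0.026). That call was lost without RIP replicate 1 (-0.64), input column 2 (-0.57) or input column 3 (-0.70).

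Among the larger proteins, LSM14A and LSM14B are partners of the helicase DDX6 in cytoplasmic granules. LSM14B had 2773, 2787 and 3168 normalized counts in RIP, against 1699, 1769.99 and 2085 in input. RIP was above input throughout, and its log2 fold of 0.65 (SE 0.14, adjusted p = 0.0019) was the highest of all members. LSM14A had 6370.2, 5619.8 and 6105 in RIP, against 6048, 5069 and 4358 in input. RIP replicate 2 lay below input column 1, and the log2 fold of 0.24 (95% interval -0.06 to 0.53) did not pass (limma, adjusted p = 0.18). LSM12 had 1930.2, 1475 and 1394 in RIP, against 2759, 3164 and 3768 in input. It fell without overlap, by 1.02 on the log2 scale (SE 0.17, adjusted p = 0.00037).

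Ratios of partner or counterpart genes within a library do not depend on how libraries are scaled. LSM8 over LSM1 was 4.88, 3.73 and 3.58 in RIP, against 2.43, 2.59 and 1.64 in input. LSM11 over LSM10 was 8.59, 8.04 and 6.31 in RIP, against 4.07, 2.62 and 2.70 in input. SNRPA over SNRPC was 3.54, 3.11 and 3.43 in RIP, against 2.05, 1.99 and 2.39 in input. All 3 ratios were higher in every RIP library than in any input column, by 0.89, 1.31 and 0.65 on the log2 scale. LSM14B over LSM14A was 0.435, 0.496 and 0.519 in RIP, against 0.281, 0.349 and 0.478 in input, which overlapped. SNRPB2 over SNRPA1 was 1.64, 1.92 and 1.495 in RIP, against 1.78, 1.64 and 1.87 in input, which also overlapped. Exact two-sided permutation tests gave p = 0.1 for the first 3 ratios, the smallest value that 3 libraries against 3 allow, and 0.2 and 0.6 for the last pair of ratios. Adjusted over the 5 ratios, these exact p-values were 0.17, 0.25 and 0.6. The ratios were chosen after the values had been seen.

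Directions near 0 depended on how libraries were scaled. Total-count scaling raised the folds of all tested genes by 0.49 on the log2 scale at the median, and totals without mitochondrial and small RNA genes raised them by 0.13. Of all called genes, 51.4% were higher in RIP with the authors' size factors, 78.8% with total counts and 59.3% with the reduced totals. Under total-count scaling 11 members fell and 5 rose (limma), where 9.9% of all tested genes fell and 36.9% rose. SNRPD1, SNRPA1, SNRPB2, LSM5 and LSM10 were then not called, at -0.02, -0.03, -0.10, -0.14 and -0.25. LSM6 and LSM14A then passed, at 0.73 each, and LSM1 changed sign to 0.22 without passing. With the reduced totals 12 members fell and 4 rose, where 2970 of the 16674 tested genes fell and 4325 rose. LSM14A then passed at 0.37, and SNRPA1 (-0.40), SNRPB2 (-0.47), LSM5 (-0.50) and LSM10 (-0.62) did not pass. No called member changed direction under these 2 scalings.

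**Figure D3:**
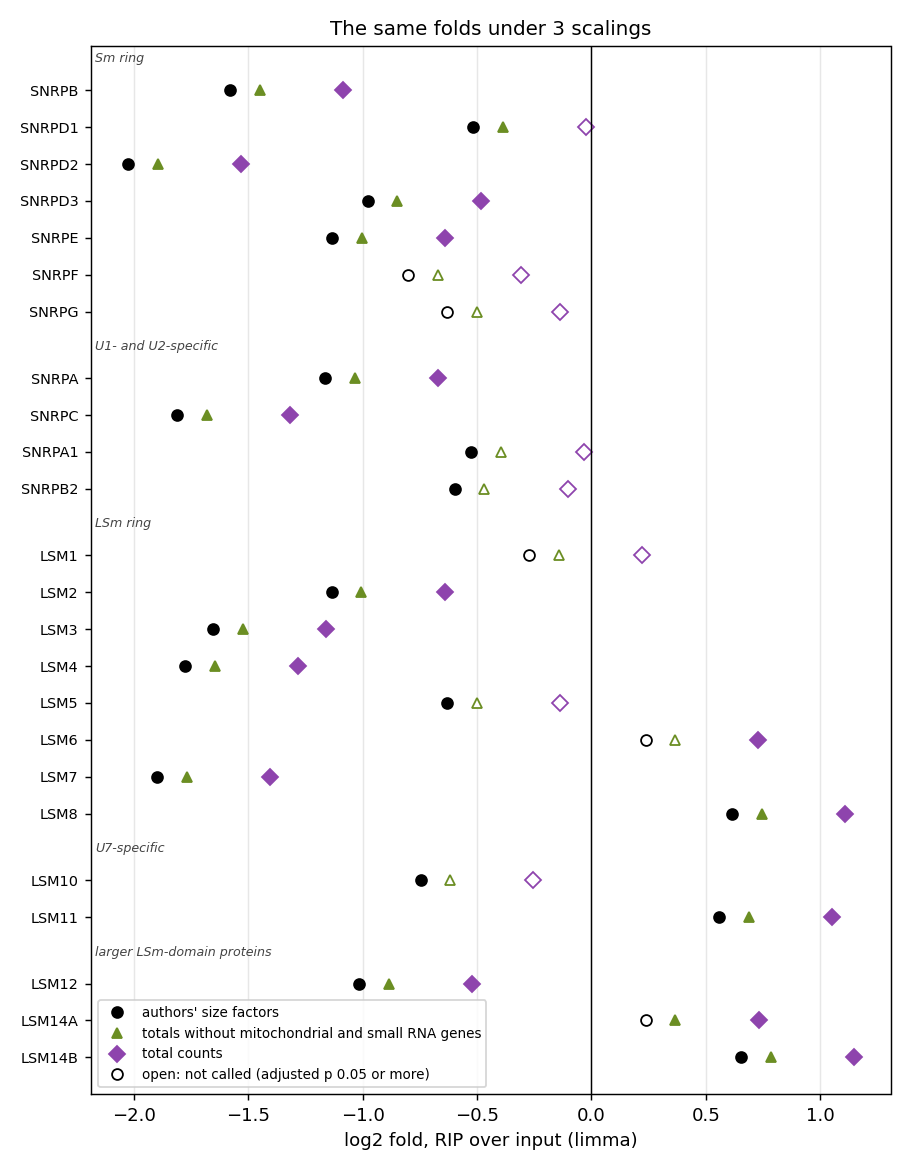
Log2 fold of RIP over input for each member under the authors' size factors (circles), totals without mitochondrial and small RNA genes (triangles) and total counts (diamonds), with open symbols for folds that did not pass in limma. Total counts shift every fold to the right, and 11 members stay called below 0.

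The libraries of a group also differed from each other in step. Input column 3 held the highest of the 3 input values for 18 of 24 members and input column 1 the lowest for 18. The share of mitochondrial RNA followed the same order of columns, and its part in the members' values was not tested. Among RIP libraries, replicate 1 was lowest for 14 members and replicate 3 highest for 12. Against the mean of the input columns, the median member stood at -0.93, -0.79 and -0.77 on the log2 scale in RIP replicates 1, 2 and 3, and 5 members were above that mean in each.

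The deposited mean was taken to cover all 9 libraries, a number that no header states. On that assumption it also gave the average of the 3 inputs without a column of their own, which has no SD here. SNRPD3 averaged 3304 normalized counts in those inputs and 1993 in the input columns, the largest excess among members (0.73 on the log2 scale). SNRPA averaged 12465 in those inputs and 8756 in the input columns. SNRPA1 went furthest the other way, with 1036 in those inputs and 1679 in the input columns (-0.70). With all 6 inputs as reference, the log2 ratios of mean counts were -1.38 and -1.44 for SNRPD3 and SNRPA. Those of SNRPA1 and SNRPB2 were -0.20 and -0.39. Against the input columns the authors' deposited folds, which follow the same ratio, were -0.50 and -0.56 for SNRPA1 and SNRPB2. No called member changed sign with all 6 inputs. These averages carry no test, and which inputs had doxycycline is not known from the column names.

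The other proteins of the snRNPs, counted in a list of 32 genes, showed 21 that fell and 1 that rose, with a median log2 fold of -0.67. SNRNP200, the helicase that unwinds U4 from U6, had 7466, 8203 and 8222 normalized counts in RIP, against 19468, 20100.2 and 18058 in input. Its log2 fold was -1.27 (SE 0.11, adjusted p = 4.3e-06). EFTUD2, a GTPase of the U5 particle, and SF3B5, a small subunit of the U2 factor SF3B, had log2 folds of -1.39 (SE 0.12) and -1.77 (SE 0.18). PRPF3 of the U4/U6 particle was the gene that rose, at 0.49 (adjusted p = 0.023), and was named after its value was seen. Of all tested genes, 21.3% fell and 22.5% rose. Under total-count scaling 11 of the list fell and 8 rose, where 9.9% of all tested genes fell and 36.9% rose.

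Of the 21 snRNP assembly genes, 7 fell (33.3%) and 6 rose (28.6%), near the 25.3% and 26% of all tested protein-coding genes. Of all tested genes, the shares were 21.3% and 22.5%. Their median log2 fold was -0.05, equal to that of all tested genes at 2 decimals. The 3 with the smallest p were lower in RIP. The methyltransferase PRMT5 had a log2 fold of -1.10 (SE 0.14), its partner CLNS1A, which escorts Sm proteins, -1.10 (SE 0.13) and the SMN-associated protein STRAP -1.15 (SE 0.12). STRAP had 3696, 3689.9 and 4334 normalized counts in RIP, against 8621, 9067 and 8312 in input. The cap hypermethylase TGS1 rose by 1.08, as did GEMIN4 (0.82), DDX20 (0.65), RIOK1 (0.57), GEMIN6 (0.62) and SMN1 (1.05), which were named after their values were seen. SMN1 and SMN2 are near-identical, so their counts are uncertain. Under total-count scaling 4 of the list fell and 9 rose, where 9.9% of all tested genes fell and 36.9% rose.

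Of 9 tested partners of the cytoplasmic LSm ring in mRNA decay (PATL2 was below the filter), 4 rose, 1 fell and 4 did not pass, where 22.5% of all tested genes rose and 21.3% fell. Their median log2 fold was 0.04. EIF4ENIF1 (4E-T, which links the cap-binding protein to DDX6) had 4244, 4967 and 5105 normalized counts in RIP, against 2392, 2567 and 2399.8 in input. All its RIP libraries stood above all input columns, with a log2 fold of 0.96 (SE 0.12, adjusted p = 6.8e-05). The decapping cofactors DCP1B and DCP1A had log2 folds of 1.05 (SE 0.16) and 0.91 (SE 0.14). DDX6 rose by 0.52, and the decapping scaffold EDC4 fell by 0.66 and was not called under total-count scaling (-0.16). DDX6 and EDC4 were named after their values were seen. PATL1, which bridges the LSM1 ring to the decapping enzyme, had a log2 fold of -0.004 and did not pass.

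A list of 9 genes was drawn up for histone end processing, the step that the U7 snRNP directs. In it 3 rose, 3 fell and 3 did not pass, where 22.5% of all tested genes rose and 21.3% fell. The 33.3% in each direction stood near the 26% and 25.3% of tested protein-coding genes. Whether each listed gene serves that step was not tested. SLBP, which binds the histone stem-loop, had 4099.7, 5040.1 and 5026 normalized counts in RIP, against 2619, 2298 and 2857 in input. Its log2 fold was 0.86 (SE 0.14, adjusted p = 0.00029). CPSF1 and the nuclease CPSF3, which cuts the pre-mRNA, had log2 folds of -1.12 (SE 0.14) and -0.99 (SE 0.13). ZNF473 (0.91) and NPAT (0.74) also rose and SYMPK fell (-0.51), as was seen from their values, and SYMPK was not called under total-count scaling (-0.01).

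**Figure D4:**
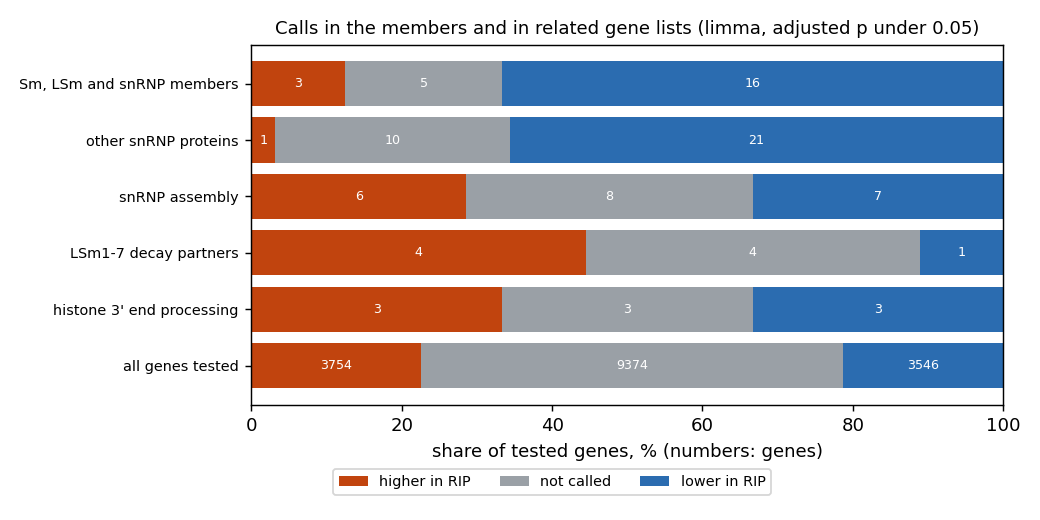
Share of tested genes that were higher in RIP, not called, or lower in RIP (limma, adjusted p under 0.05), with the number of genes in each segment. The members and the other snRNP proteins have 16 of 24 and 21 of 32 genes in the lower class, against 21.3% of all tested genes.

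The folds were also set beside genomic span and abundance, as a description without a test. Across the 24 members the Spearman correlation of the log2 fold with genomic span was 0.32, and across 15071 tested genes with a span it was 0.08. With the mean normalized count, which is not per length, it was -0.04 across members and 0.05 across all tested genes. These points share their libraries and are not independent replicates. The spans ran from 4473 bases for LSM10 to 56785 bases for LSM14A. SNRPD3 overlaps the protein-coding gene GUCD1 in RefSeq, SNRPB holds the small nucleolar RNA gene SNORD119, and LSM1, LSM4 and LSM14B overlap genes of long non-coding RNAs. As no label or header names the strand setting, reads of overlapping genes cannot be told apart.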

How the data were processed

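RIP (n = 3) and input (n = 3 columns) libraries were read as 75-base reads in genes. STAR, featureCounts, DESeq2 and GRCh38 are named in the submitters' processing notes; their versions, the annotation release and the strand setting stand in no label or header read here. The values are a deposited signal: counts that the authors divided by 1 size factor per library. Dividing by each column's smallest step gave whole reads for 100% of values within 0.01, and these recovered counts were not otherwise deposited. The deposited log2 folds and p-values come from the authors' DESeq2 table. They equal the ratio of the RIP and input columns, with a largest difference of 0.002 on the log2 scale over 7254 genes averaging above 1000.

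Genes with at least 10 normalized counts in at least 3 libraries were tested on log2(normalized count + 1) with limma 3.58.1 (lmFit, eBayes with trend, R 4.3.3), with Benjamini-Hochberg adjustment over 16674 genes and a threshold of 0.05. The fold understates the change of low genes. Alternatives were edgeR 4.0.16 quasi-likelihood on recovered reads (3695 genes higher and 3432 lower), DESeq2 1.42.0, other scalings, other pseudocounts (0.5 and 10), other filters, a replicate block, and leaving out each library. Between libraries of a group, chi-square per degree of freedom was 29.9 to 82.8, so none were copies. For scale, 3 reads equal 0.0736 to 0.0808 CPM, and such floors cover counting error only. Named genes were all members and, of each related list, the 3 with the smallest p. Further list genes were named outside this rule, most of them after their values had been seen. Members and lists were chosen with earlier results of these data known. Protein length was not analysed here, and genomic span was used in its place. Sequences and coordinates are from RefSeq (GRCh38.p14).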

Additional observations from a re-analysis of the deposited data

How the results depend on the processing

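Of 384 tested values of single members under 16 alternatives, 346 kept their direction and their side of the threshold, 23 lost the call and 14 gained one. LSM1, which was not called, turned to 0.22 under total-count scaling, and no called value reversed. A further 48 values, from the average over all 6 inputs and the shrunken folds of the authors' deposited table, carry no test. Of these, 6 from the average over inputs moved by more than the spread between RIP libraries. Under total-count scaling 6152 genes rose and 1651 fell (limma), 5 members rose, of which 2 were LSm ring genes, and the median log2 fold was -0.48 for the Sm ring, -0.39 for the LSm ring and -0.28 for all members. Totals without mitochondrial and small RNA genes gave a member median of -0.64. With all 6 inputs, by the log2 ratio of mean counts, the member median was -0.87, and that of the Sm ring -1.16. Requiring at least a 2-fold change left 1904 genes higher and 1778 lower, with 0 members higher (0 LSm ring) and 10 lower (3 Sm ring). Without that requirement 3 members were higher by edgeR. By limma 3 were also higher at an unadjusted p under 0.05, where the share of all tested genes was not counted. Leaving out 1 library at a time gave 3109 to 3816 genes higher and 2863 to 3711 lower, 3 members higher each time, and 11 to 17 lower. The fewest, 11, came without input column 2. The Sm ring had 4 to 7 lower and a median of -1.06 to -0.85, the LSm ring 4 to 5 lower and -0.999 to -0.80, and the member median ran from -0.92 to -0.63. The cause of these shifts was not tested. The RIP and input columns share the numbers 1 to 3, but the deviations of same-numbered libraries from their group means correlated at 0.069 to 0.091 over genes, so the numbers were not taken to pair them. Each library correlated best with its own number, a hint from the data and not from the design. A fit with the replicate block, run after the other results were known, gave 4041 genes higher and 3906 lower, with 3 members higher and 18 lower, as SNRPF (-0.80) and SNRPG (-0.63) then passed (limma, adjusted p = 0.017 and 0.0093). With 3 libraries a group, Dixon's test for single outlying libraries was not applied.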
